A study of Mus musculus with 2 samples.

Results

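Cathepsins are proteases that mostly work inside acidic endosomes and lysosomes, and 10 of their genes were examined here in embryonic mouse ureters cultured with or without NOGGIN. The genes are Ctsa, Ctsb, Ctsc, Ctsd, Ctse, Ctsh, Ctsk, Ctsl, Ctss and Ctsz. They were taken by gene name from all non-control probes, which gave 13 probes for the 10 genes, out of 30011 genes or unnamed features on the array. The family was picked from the measured ratio of Ctse, which was large on both arrays, so every ratio below belongs to the contrast that chose the family and is given as a description without a test. A further 13 cathepsin genes on the array are described after them.

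The cultures that received 10 µg/ml NOGGIN, a secreted antagonist of bone morphogenetic proteins (BMPs), were set against cultures in the same medium without it. Both groups were ureters of wild-type NMRI embryos of mixed sex, dissected at E13.75 (days of gestation) and kept on transwell membranes for 18 h. Each of 2 two-colour arrays held 1 NOGGIN and 1 control sample, with the dyes exchanged between arrays. The labels do not say whether the pairs came from separate litters, so the spread between them may be technical. Precision is limited by there being 2 arrays.

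The direction of the comparison is not settled by the sources. All signed values follow the dyes named in the labels and are log2 ratios of the NOGGIN-labelled channel to the control-labelled one. Read so, Id1, a gene that BMP signalling induces, had log2 ratios of 2.21 and 2.08. That is the reverse of what BMP antagonism would give. In the authors' deposited table the same probe has scores of -4.65 and -4.53. The sample titles name NOGGIN before control, and scores taken in that order would run the opposite way. If the dye labels are exchanged, Ctse and Id1 are both lower with NOGGIN, and every other sign below turns as well.

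Cathepsins are made as inactive precursors and activated by cleavage, and they fall into classes by the residue that cuts the substrate. Ctse and Ctsd encode aspartic proteases of the pepsin family. Ctsa encodes a serine carboxypeptidase that also protects other lysosomal enzymes. Ctsb, Ctsc, Ctsh, Ctsk, Ctsl, Ctss and Ctsz encode cysteine proteases related to papain. Most are lysosomal enzymes of many tissues, whereas cathepsin E is largely endosomal and is known from the surface epithelium of the stomach and from immune cells.

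The probes behind the main differences lie on chromosome 1 for Ctse (chr1:133571990-133572049, mouse build mm9, plus strand) and on chromosome 3 for Ctsk (chr3:95313165-95313224, mm9, plus strand). No exon or untranslated-region annotation in mm9 coordinates was used. The first 30 bases of each 60-base probe are shown because each of the 2 genes was read by a single probe. The third line is a Ctsd probe shown whole because it reads across a splice junction, from 149566847 to 149568505 on chromosome 7 (mm9, minus strand, a span of 1659 bases), and disagreed with the other Ctsd probe.
Ctse probe, first 30 bases: gacctgtttttacagttggtttatttgtat
Ctsk probe, first 30 bases: catttcagtcttccactgagatgcacaaat
Ctsd junction probe: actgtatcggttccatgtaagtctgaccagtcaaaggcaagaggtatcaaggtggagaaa

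All 13 cathepsin probes were well above background in both channels of both arrays, so each ratio rests on measured signals on both sides. Each probe has 4 spots per array, of which the scanner software flagged 3 in all among these probes, and none was saturated. Array signals of different probes cannot be set against each other, so levels are compared only between channels of the same probe. Over the whole array, 65.3% to 76.9% of probes were well above background in a channel. The ratios of the 2 arrays correlated weakly across the 22316 kept features (Pearson 0.18, Spearman -0.07), which are not independent replicates.

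Ctse stood far from the rest of the family and was about 4 to 5 times higher in the channel labelled NOGGIN. Its normalized log2 signal was 11.57 and 11.88 in the NOGGIN channels of arrays 1 and 2, against 9.54 and 9.55 in the control channels. Both NOGGIN values lay above both control values, as they also did for Ctsl and Ctsz, and the 2 control values nearly coincided. The log2 ratio was 2.02 on array 1 and 2.33 on array 2, a fold of 4.06 and 5.04, with a mean of 2.18 ± 0.22 (SD, n = 2).

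Single spots of the Ctse probe gave log2 ratios from 1.74 to 2.25 on array 1 and from 2.21 to 2.54 on array 2. No spot came near 0. The raw mean signal was 3825 and 3167 in the NOGGIN channels, against 494.5 and 1031 in the control channels. The authors' deposited table scores the probe at -4.74 and -4.84, a change of similar size. Among 22316 features that passed the filter, Ctse ranked 15th by the size of its mean ratio regardless of sign, and 8th on the higher side as the dye labels set it.

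Ctsd, the other aspartic cathepsin and a main protease of the lysosome, had no shared direction. Its brighter probe had normalized log2 signals of 15.03 and 14.82 in the NOGGIN channels, against 14.86 and 15.20 in the control channels. The groups overlapped, and the log2 ratio was 0.17 on array 1 and -0.39 on array 2 (mean -0.11 ± 0.39, SD, n = 2). The junction probe shown above had 0.17 on array 1 and 0.46 on array 2. The 2 Ctsd probes therefore matched on array 1 and lay on opposite sides of 0 on array 2, where their spots did not overlap (-0.48 to -0.29 and -0.02 to 0.89).

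Ctsa differed by less than its spread between arrays. Its brighter probe had normalized log2 signals of 15.33 and 15.27 in the NOGGIN channels, against 15.24 and 15.32 in the control channels, and a mean log2 ratio of 0.02 ± 0.11 (SD, n = 2). The dimmer Ctsa probe, designed to another transcript, had -0.02 ± 0.22. Both probes were above 0 on array 1 and below 0 on array 2.

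**Figure D1:**
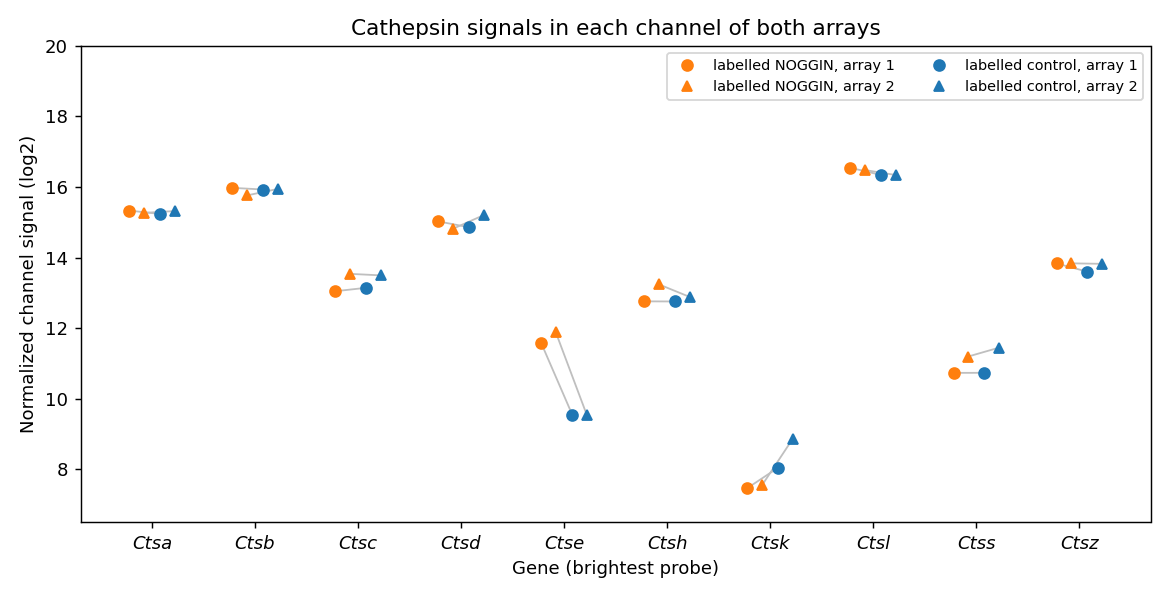
Normalized log2 signal (y axis) of the brightest probe of each of the 10 cathepsin genes (x axis) in the channel labelled NOGGIN (orange) and the channel labelled control (blue), with grey lines joining the 2 channels of an array. Ctse lies at 11.57 and 11.88 in the NOGGIN channels against 9.54 and 9.55 in the control channels, and Ctsk runs the other way; heights of different genes are not comparable.

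Among the cysteine cathepsins, Ctsk was the one that lay clearly apart, on the lower side. Ctsk encodes a collagen-degrading protease best known from osteoclasts. Its normalized log2 signal was 7.47 and 7.54 in the NOGGIN channels, against 8.05 and 8.87 in the control channels. The groups did not overlap, but with 2 values in each group that alone says little. The share of all features without overlap was not counted. The control value of array 2 was the highest of the 4. The log2 ratio was -0.58 on array 1 and -1.33 on array 2, a mean of -0.95 ± 0.53 (SD, n = 2), so its size differed between arrays by more than that of Ctse.

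Single spots of the Ctsk probe ran from -0.83 to -0.29 on array 1 and from -1.43 to -1.18 on array 2, all below 0. Written as control over NOGGIN, its folds were 1.497 on array 1 and 2.51 on array 2, so array 1 just missed the 1.5-fold threshold used below. The raw mean signal was 162.6 and 155.5 in the NOGGIN channels, against 199.3 and 563.5 in the control channels, with array-wide median backgrounds of 28 in green and 66 in red. With plain background subtraction its mean was -1.36 and on the scanner software's processed signals it was -1.38. Under 6 of 12 alternative settings Ctsk passed 1.5-fold on both arrays. The 12 include changes of the filter, of flagged spots and of probe averaging, which left its ratio unchanged.

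Ctss, which encodes a cysteine protease of antigen-presenting cells and directly neighbours Ctsk on chromosome 3 in the GRCm38 gene order, did not share its size. Its normalized log2 signals were 10.73 and 11.19 in the NOGGIN channels, against 10.73 and 11.45 in the control channels. The ratio was 0.00 on array 1 to 2 decimals and -0.25 on array 2 (mean -0.13 ± 0.18, SD, n = 2). The groups overlapped, and array 2 was brighter in both channels.

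Ctsl, a widely expressed lysosomal endopeptidase, had the most even ratio of the family. Its normalized log2 signals were 16.55 and 16.48 in the NOGGIN channels, against 16.34 and 16.34 in the control channels. Both NOGGIN values were above both control values, by a mean log2 ratio of only 0.17 ± 0.05 (SD, n = 2). Spots of each array reached below 0, down to -0.08 on array 1 and -0.11 on array 2, so the difference was within the spread of the spots.

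Ctsh, an aminopeptidase, had log2 ratios of 0.00 on array 1 and 0.36 on array 2 (mean 0.18 ± 0.25, SD, n = 2). Ctsz, a carboxypeptidase, had the reverse pattern, with 0.23 on array 1 and 0.01 on array 2 (mean 0.12 ± 0.16). The normalized log2 signals of Ctsz did not overlap either, with 13.835 and 13.838 in the NOGGIN channels against 13.601 and 13.824 in the control channels. For both genes the spread between arrays exceeded the mean. Ctsb, which has both endopeptidase and carboxypeptidase activity, had 0.05 and -0.18, and its mean of -0.07 ± 0.16 was likewise smaller than its spread.

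Ctsc encodes the dipeptidyl peptidase that activates serine proteases of immune granules. Its brighter probe had log2 ratios of -0.10 on array 1 and 0.04 on array 2 (mean -0.03 ± 0.10, SD, n = 2). The dimmer Ctsc probe, designed to an Ensembl transcript, had -0.66 on array 1 and 0.44 on array 2. Since the dyes were exchanged, this probe was relatively brighter in the red channel on both arrays.

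**Figure D2:**
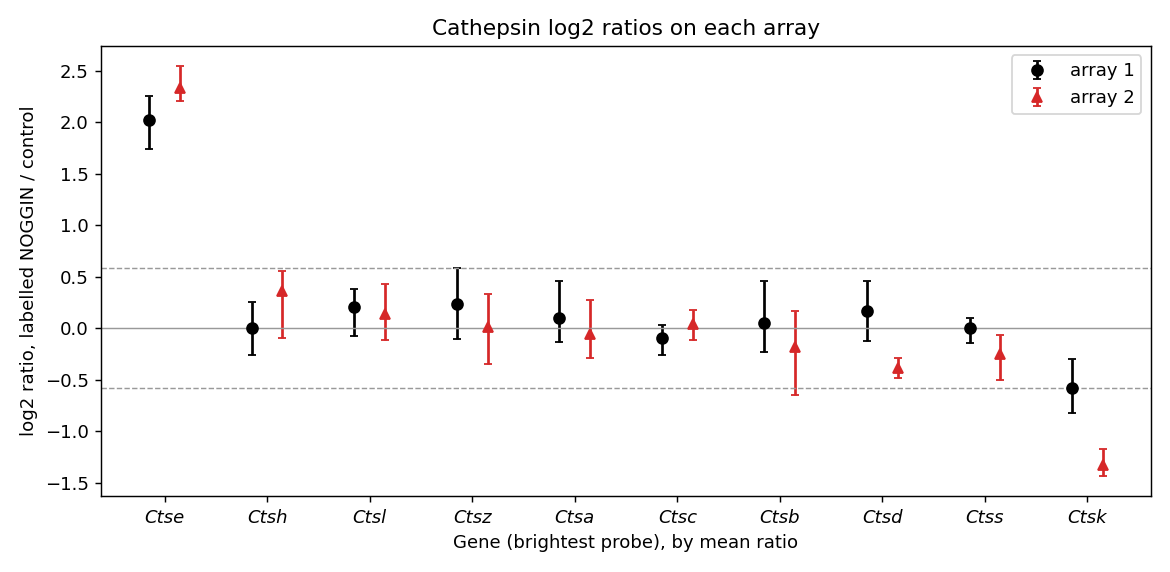
Log2 ratio of NOGGIN-labelled to control-labelled channel (y axis) for each cathepsin gene (x axis, by mean ratio) on array 1 (black circles) and array 2 (red triangles). Points are the mean of the spots, bars run from the lowest to the highest spot, and dashed lines mark 1.5-fold; Ctse lies at 2.02 and 2.33, Ctsk at -0.58 and -1.33, and the others within 0.39 of 0.

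Set side by side, 4 genes were above 0 on both arrays (Ctse, Ctsh, Ctsl and Ctsz), 2 were below 0 on both (Ctsk and Ctss), and 4 had opposite signs on the 2 arrays. Ctsh (0.004) and Ctss (-0.0015) on array 1 and Ctsz (0.014) on array 2 lay so near 0 that these signs say little. Of all 22316 features, 4558 were above 0 on both arrays, 5205 were below 0 on both and 12553 had opposite signs. Of the 10 genes, 1 (Ctse) was at least 1.5-fold higher on both arrays and 0 were at least 1.5-fold lower. Over all 22316 features, 210 (0.941%) were higher and 278 (1.25%) were lower by this rule, 488 (2.19%) in all. Because the family was picked for Ctse, nothing is read from that count. The median of the 10 mean ratios was -0.002, beside -0.006 for all features. Limma's moderated test with Benjamini-Hochberg adjustment called 0 of the 22316 features (0%) at an adjusted p under 0.05, and 1347 (6.04%) had an unadjusted p under 0.05.

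**Figure D3:**
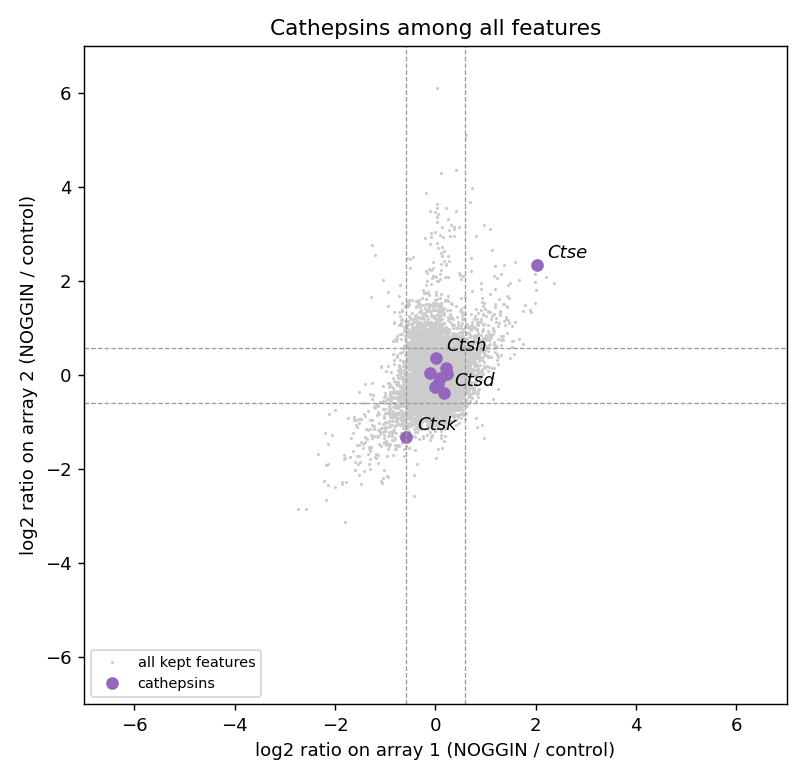
Log2 ratio of NOGGIN over control on array 1 (x axis) and array 2 (y axis) for the 22316 kept features (grey) and the 10 cathepsin genes (purple), with dashed lines at 1.5-fold. Ctse lies at 2.02 and 2.33 in the upper right, Ctsk at -0.58 and -1.33 on the edge of the lower left, and the other 8 genes sit in the central cloud.

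Of the 13 other cathepsin genes, 5 passed the filter on dim probes. The 8 not kept were Ctsj, Ctsq, Ctsr, Cts3, Cts6, Cts7, Cts8 and Ctsll3, which belong to a cathepsin cluster known from the rodent placenta. Of the 5 kept, 0 reached 1.5-fold on both arrays, and their mean log2 ratios ran from -0.14 for Ctsw, a protease of cytotoxic lymphocytes, to 0.27 for Ctso. Ctsg and Ctsm were above background only in the green channel, so they were measured in 1 channel of each array.

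Of 8 kept aspartic proteases, 1 was at least 1.5-fold on both arrays, beside 2.19% of all features. That gene was Ctse, for which the family was picked, so nothing is read from this count. Napsa had log2 ratios of 0.70 on array 1 and 0.05 on array 2, and Cym had -0.04 and 0.67. Ren1, which encodes renin, was the lowest with a mean log2 ratio of -0.18 ± 0.15 (SD, n = 2). The pepsinogen gene Pga5 did not pass the filter.

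Inhibitors of cathepsins had a median near that of all features. None of 10 kept cystatin and serpin genes reached 1.5-fold on both arrays, and their median was -0.016. The highest mean, that of the serpin gene Serpina3g, joined -1.05 on array 1 with 2.01 on array 2 and so has no shared direction. The lowest was Serpinb6b at -0.31 ± 0.24 (SD, n = 2).

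The other lysosomal genes also had medians close to 0. Of 29 lysosomal hydrolase genes, all of them kept, 28 did not reach 1.5-fold on both arrays and the median was 0.002. The 1 that did was on the lower side, beside 1.25% of all features lower and 2.19% in all, so nothing is read from that count. It was Arsb, which encodes arylsulfatase B, a glycosaminoglycan-degrading enzyme, with log2 ratios of -0.90 and -0.70 (mean -0.80 ± 0.14, SD, n = 2). The highest was Ppt1, a palmitoyl thioesterase, at 0.22 ± 0.21.

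None of 19 kept genes of the lysosomal membrane and proton pump reached 1.5-fold on both arrays (median 0.045). They ran from Cd63, a tetraspanin, at -0.33 ± 0.16 to the pump subunit gene Atp6v0d2 at 0.44 ± 0.14 (SD, n = 2 each). Of 14 kept genes for sorting and for the TFEB family, which controls lysosomal genes, none reached it either (median -0.080). M6pr, a mannose 6-phosphate receptor that delivers cathepsins to lysosomes, was highest at 0.28 ± 0.24, and the adaptor gene Gga1 was lowest at -0.42 ± 0.80. In the hydrolase, membrane and sorting lists the medians of array 1 were positive (0.130, 0.114 and 0.096) and those of array 2 negative (-0.179, -0.107 and -0.063). The medians of all features had the same signs but were smaller in size (0.024 and -0.050). Since the dyes were exchanged, these medians lay on the side of the green channel on both arrays. Opposite signs were found for 18 of 29 hydrolase, 13 of 19 membrane and 5 of 14 sorting genes, beside 12553 of 22316 features. The cause was not tested.

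**Figure D4:**
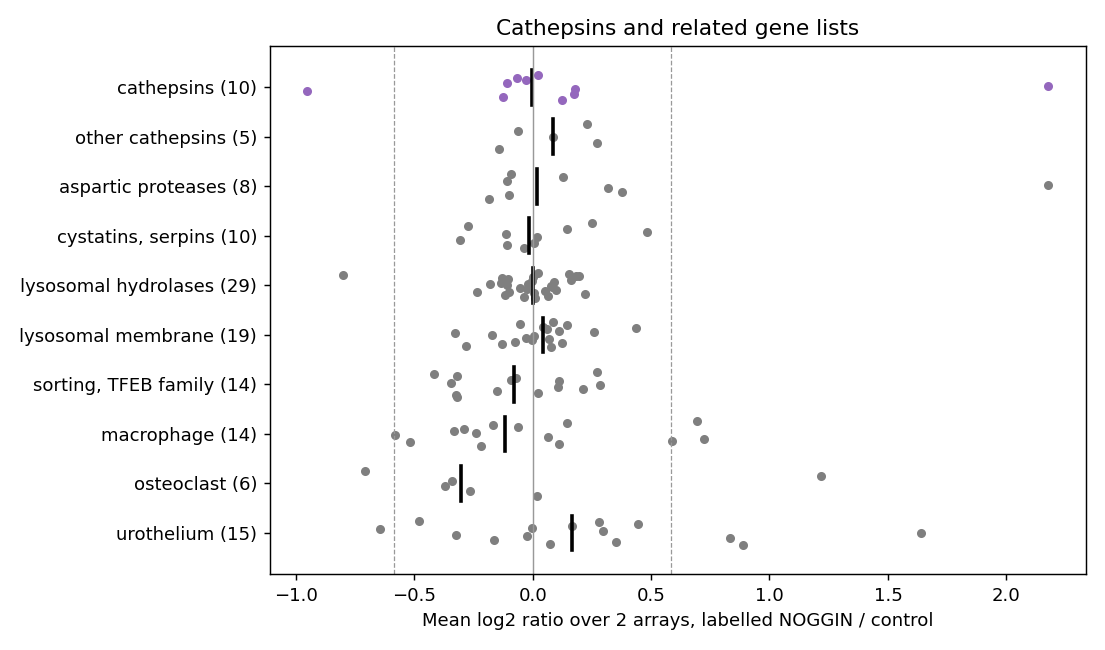
Mean log2 ratio over 2 arrays of NOGGIN over control (x axis) for single genes (dots) of the cathepsins (purple) and of related gene lists (grey), with the number of kept genes in brackets. Vertical bars are list medians and dashed lines mark 1.5-fold; Ctse at 2.18 is the highest point plotted, and the lysosomal lists have medians between -0.080 and 0.045.

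In whole ureters a ratio cannot tell fewer cells of a type from less RNA per cell, so markers of cells known for cathepsins are given beside these values. Of 14 kept macrophage markers, none reached 1.5-fold on both arrays, 7 were below 0 on both and 1 was above 0 on both (median -0.116), beside 5205 below and 4558 above of all 22316 features. They ran from Cx3cr1 at -0.58 ± 0.97 to the lysozyme gene Lyz1 at 0.72 ± 1.28 (SD, n = 2 each), both of which differed strongly between arrays. Of 7 antigen-presenting markers none reached 1.5-fold on both arrays (median -0.127), from H2-Ab1 at -0.64 ± 0.10 to Itgax at 0.11 ± 0.03. Their part in the ratios of Ctss and Ctsk was not tested.

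Osteoclast-associated genes had a median of -0.302 over 6 kept genes. Acp5, the tartrate-resistant acid phosphatase, was lowest, with log2 ratios of -0.34 on array 1 and -1.07 on array 2 (mean -0.71 ± 0.52, SD, n = 2). Like Ctsk, Acp5 was lower on both arrays and more so on array 2. Array 2 alone had 2631 features past 1.5-fold against 961 on array 1, so a larger ratio there is not particular to these genes. Calcr, the calcitonin receptor gene, ran the other way with 1.08 and 1.35. It was the 1 of the 6 genes past 1.5-fold on both arrays, beside 0.941% of all features on the higher side. Of the 6, 3 were below 0 on both arrays, 1 was above 0 on both and 2 had opposite signs. Over all 22316 features these counts were 5205, 4558 and 12553. What these genes share with Ctsk was not tested.

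Markers of the epithelium and the mesenchyme were present, as the tissue label states. Among 15 urothelial markers, Pparg at 1.64 ± 0.20 and Upk3b at 0.89 ± 0.04 passed the 1.5-fold rule on the higher side, and Krt5 was lowest at -0.65 ± 0.16 (SD, n = 2 each). Of the 15, 7 were above 0 on both arrays, 3 were below 0 on both and 5 had opposite signs (median 0.166). Over all features, 0.941% were higher and 1.25% lower by the 1.5-fold rule. Among 10 mesenchymal markers, Sox9 (1.21), Myocd (1.05) and Tbx18 (0.77) were higher and Tagln (-0.98) was lower by the same rule. Those 3 higher genes were the ones above 0 on both arrays, and the other 7 were below 0 on both (Acta2, Aldh1a2, Col1a1, Col3a1, Myh11, Pdgfra and Tagln), which gave a median of -0.578. Of 9 gut epithelial markers, a tissue in which cathepsin E is known, 6 were kept. They ran from Lgr5 at -0.13 to Vil1 at 0.08, with 0 past 1.5-fold on both arrays. Lgr5 was the 1 gene above background in all spots of both channels, and the other 5 (Gkn1, Tff2, Muc2, Muc5ac and Vil1) were at or near background in the red channel of at least 1 array, so their ratios say little. The part of cell makeup in the Ctse ratio was not tested.

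The 4 genes whose pair of ratios lay nearest to that of Ctse, by Euclidean distance over the 2 arrays, were Ednrb, Id1, Sct and Gsdmc3. This likeness rests on 2 values per gene. Ednrb, an endothelin receptor gene, was nearest at a distance of 0.18, with log2 ratios of 1.98 and 2.15, and its 2 kept probes had means of 2.00 and 2.07. Id1 followed at 0.32 and Sct, which encodes secretin, at 0.36. Gsdmc3 (distance 0.44) belongs to a group of near-identical gasdermin genes, so its assignment is uncertain, and its 2 kept probes had means of 0.66 and 1.99.

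Known BMP-induced genes are given beside Ctse for scale. As the dye labels set it, all 7 passed the 1.5-fold rule on the higher side, beside 0.941% of all features. They ran from Smad7 at 0.78 to Id2 at 2.59. That direction is the reverse of what BMP antagonism would give. If the dye labels are exchanged, all 7 and Ctse are lower with NOGGIN. Between them lay Smad6 at 0.95, Id3 at 1.45, Id4 at 1.76, Id1 at 2.14 and Smad9 at 2.16. The mean of Ctse, 2.18 ± 0.22 (SD, n = 2), lay within its spread of the means of Smad9 and Id1. On array 1 Ctse (2.02) was below Id2 (2.41), Smad9 (2.36) and Id1 (2.21). On array 2 Ctse (2.33) was below Id2 (2.77) alone. The family was picked for this value, so nothing is read from its rank.

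Promoter sequences from RefSeq (GRCm38.p6, 250 bases before to 50 after the start) were matched for 7 of the 10 genes, with 8 promoters, and none for Ctsb, Ctse and Ctsh. The promoters of Ctsd and Ctsk are shown because they are the extremes of base composition in the family. Capitals mark CACGTG, the core of the CLEAR element that TFEB reads in lysosomal gene promoters, searched on both strands (it is its own reverse complement).
Ctsd promoter, chr7:142387778-142388077, minus strand: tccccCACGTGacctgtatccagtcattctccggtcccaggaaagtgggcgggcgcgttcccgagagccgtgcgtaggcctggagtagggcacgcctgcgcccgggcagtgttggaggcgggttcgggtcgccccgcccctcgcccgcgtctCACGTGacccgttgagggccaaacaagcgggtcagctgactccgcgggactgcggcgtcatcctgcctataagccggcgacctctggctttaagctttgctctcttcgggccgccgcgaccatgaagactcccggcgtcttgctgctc
Ctsk promoter, chr3:95498960-95499259, plus strand: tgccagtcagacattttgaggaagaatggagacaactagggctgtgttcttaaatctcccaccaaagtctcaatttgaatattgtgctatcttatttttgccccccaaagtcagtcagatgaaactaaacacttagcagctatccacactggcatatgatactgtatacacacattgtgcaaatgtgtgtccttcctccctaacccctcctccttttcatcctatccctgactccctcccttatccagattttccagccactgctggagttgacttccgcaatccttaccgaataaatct

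The Ctsd promoter had 67.3% G and C, 33 CpG pairs and 2 CACGTG matches. The Ctsk promoter had 43.7% G and C, 2 CpG pairs and no match, and that of its neighbour Ctss had 44.0%, 5 CpG pairs and no match. The median over all 32851 promoters was 52.7% G and C. CACGTG was found in 3 of the 8 cathepsin promoters, those of Ctsa (1 of its 2), Ctsd and Ctsl, and in 7.15% of all promoters. GGCGCC, a GC-rich SMAD motif searched on both strands, was in 2 of the 8 (Ctsa and Ctsz) and in 11.9% of all. The TATA box letters TATAAA were in 1 (Ctss) and in 13.6% of all, and the AP-1 letters TGACTCA in 0 and in 5.20% of all, each searched on both strands. A match describes letters and shows no binding.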

How the data were processed

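Agilent Feature Extraction 10.7.3.1 measured the spot intensity values, per the submitters' processing notes. The deposited intensity columns hold mean signals and local background medians, not normalized, and processed signals that the scanner software background-subtracted and dye-normalized, per the file headers. A log10 ratio of the red to the green processed signal is also deposited, per the file headers, and was used only to check columns. The flags per spot come from the same software. The authors' deposited table holds a signed score per probe, which behaves as a linear fold change. Correlation of its log2 form with the red-to-green ratio was 0.891 (array 1) and -0.943 (array 2), so by the dye labels it is control over NOGGIN. Medians were 1 on both arrays. The sources used here do not give its normalization.

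Mean signals were background-corrected by normexp (offset 50), and loess, with a weight of 0 for control spots, normalized the ratios of each array (limma 3.58.1 under R 4.3.3). Flagged spots (3.36% and 3.09%) were left out and the spots of a probe averaged. A probe was kept where, on both arrays, 1 channel or both had a share above 0.5 of its spots well above background (29645 of 39429). Channel signals were scaled between arrays by Aquantile. The brightest probe stood for a gene. Names were updated through RefSeq accessions (28328 probes, 71.8%). Limma's lmFit and eBayes were fitted on all features. They were also run on simulated ratios with independent noise on each array and no dye effect of single genes. That run is therefore no check on such effects in these data. Both arrays share a slide and a scan, so each ratio lies within that batch. Figures used matplotlib 3.10.9.

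The members, gene lists and alternatives were chosen with earlier results of these data known. Named genes are all members, the highest and lowest gene of each list and those at least 1.5-fold on both arrays, Id1 and the 5 genes nearest to Ctse, of which 1 is not reported here.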

Additional observations from a re-analysis of the deposited data

How the results depend on the processing

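The Ctse log2 ratio, 2.18, ran from 2.15 with median centring to 2.29 with plain background subtraction in the alternatives that kept both arrays, and from 2.02 to 2.33 on single arrays. Ctse passed the 1.5-fold rule in all 12 alternatives that kept both arrays and Ctsk in 6, since it lies at the threshold on array 1. The count of members past the rule, 1 as reported, was therefore 2 with no background correction, plain subtraction, processed signals, scale normalization, the median of the spots and the authors' deposited values, and 1 to 2 on single arrays. No other member passed in those 12. Among them, the filter changes, keeping flagged spots and averaging all kept probes left the ratios of Ctse and Ctsk unchanged. Each of these genes has 1 probe without flagged spots, so those settings are no further check on them. Ctsk ran from -1.44 to -0.58 and never changed sign, whereas Ctsa changed sign in 4 of 15 alternatives, Ctsd in 2, and Ctsb and Ctsc in 1 each. Over all features the fold-rule count of 488 became 895 with plain subtraction, 853 on processed signals, 149 at 2-fold, and 961 to 2631 on single arrays. Limma passed 0 features at an adjusted p of 0.05. That count was 141 with the trend and robust options, 114 after median centring, 97 if signal above background was required of both channels, 35 without background correction, 23 if flagged spots stayed in, and 36 at a threshold of 0.1. The causes were not tested. The pairing of channels on an array is the design itself. With separate channels and no replicate block the mean ratios equal the paired ones by construction, so the Ctse ratio of 2.18 there is no further check. Where both values of one group had to lie 1.5-fold beyond both of the other, 1 member passed, beside 406 of all features. Signal over background limits the dim probe of Ctsk, and Ctse and Ctsk have 1 probe each.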
